A study of Mus musculus with 57 samples.

Results

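The 500 broadest H3K4me3 domains of the cortex of PSAPP mice are described here. Overlapping H3K4me3 peaks of the 9 cortex libraries were merged on chromosomes 1 to 19 into 25646 regions, of which 16841 held a peak in all 9 libraries. These were ranked by the median over libraries of the width of the widest peak inside the region, and the top 500 were taken. The domains were thus chosen by their cortex widths, which are given as a description, without a test. PSAPP mice are a transgenic model of Alzheimer's disease that expresses a mutated human presenilin 1 and a chimeric mouse/human amyloid precursor protein. The authors describe all animals as PSAPP mice, so no group without the transgenes was compared. The genotype of single animals was not checked here. Cortex (9 animals) and gastrocnemius muscle (10 animals) were taken at 13 months of age from singly housed mice of both sexes on a modified AIN-93 diet, and H3K4me3, H3K27ac and H3K27me3 were profiled in each by chromatin immunoprecipitation and sequencing, 1 library for each mark, tissue and animal, 57 in all. By the animal codes in the deposited names, 9 animals gave both tissues. The labels do not give the sex of a sample, and the sexes are not separated here. Both tissues hold many cell types, and a lower signal from fewer cells of a type cannot be told apart from a lower signal per cell.

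H3K4me3 is trimethylation of lysine 4 of histone H3, laid down by SET1 and MLL complexes around the start sites of active genes, usually as a narrow peak. At some genes it spreads over many nucleosomes into the gene body, and such broad domains are known from many cell types to lie at genes that define the identity of the cell. H3K27ac marks active promoters and enhancers, and H3K27me3, deposited by Polycomb repressive complex 2, marks genes held silent, so that both methyl marks on the same gene in a tissue may lie in the same cells or in different ones.

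The labels were checked with marker promoters. All 18 neuronal promoters examined had an H3K4me3 peak in every cortex library, and between 18 and 20 of 20 astrocyte, 19 and 21 of 21 oligodendrocyte lineage, 10 and 15 of 20 microglia and 16 and 18 of 18 endothelial promoters had one. Of 27 skeletal muscle promoters, 3 to 6 had a peak in the cortex libraries and 24 to 26 in the gastrocnemius libraries. The gastrocnemius libraries also had peaks at 14 to 16 of the neuronal promoters, so an H3K4me3 peak alone did not separate the tissues. Reads in autosomal peaks ranged from 9.32 to 18.6 M reads for H3K4me3 in cortex and from 9.03 to 14.8 M in gastrocnemius, from 3.90 to 21.0 and from 15.6 to 27 M for H3K27ac, and from 3.90 to 6.35 and from 2.99 to 18.2 M for H3K27me3. Cortex H3K27ac library 9 was the shallowest of its group at 3.90 M reads.

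Promoter sequences of the 4 widest domains whose naming gene is in the RefSeq promoter table show what kinds of start site lie under the widest marks. Each runs from 250 bases before to 50 bases after the start site on GRCm38.p6, 5′ to 3′, and capitals mark every CG dinucleotide, the site of CpG methylation and of CpG island recognition.
C130071C03Rik (non-coding host transcript at Mir9-2, chr13:83727856-83728155, plus strand): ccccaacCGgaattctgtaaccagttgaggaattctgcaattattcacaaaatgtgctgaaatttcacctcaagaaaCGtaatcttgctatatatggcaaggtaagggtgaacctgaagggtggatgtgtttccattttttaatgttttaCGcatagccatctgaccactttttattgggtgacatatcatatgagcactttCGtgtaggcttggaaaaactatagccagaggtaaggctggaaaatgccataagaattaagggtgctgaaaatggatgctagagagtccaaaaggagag
Mroh2a (within the Ugt1a cluster, chr1:88226770-88227069, plus strand): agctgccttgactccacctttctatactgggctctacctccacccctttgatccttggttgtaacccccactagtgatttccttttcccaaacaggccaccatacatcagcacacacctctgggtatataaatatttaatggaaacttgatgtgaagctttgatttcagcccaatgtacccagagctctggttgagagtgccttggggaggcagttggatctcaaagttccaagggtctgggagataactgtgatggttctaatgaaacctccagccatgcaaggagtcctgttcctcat
Bcl11a (zinc finger factor, chr11:24080445-24080744, plus strand): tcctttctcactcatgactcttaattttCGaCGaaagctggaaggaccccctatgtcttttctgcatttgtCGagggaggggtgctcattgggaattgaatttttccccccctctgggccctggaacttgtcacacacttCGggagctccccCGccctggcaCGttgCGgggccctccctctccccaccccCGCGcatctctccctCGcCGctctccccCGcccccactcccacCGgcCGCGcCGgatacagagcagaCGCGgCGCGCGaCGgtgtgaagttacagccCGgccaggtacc
Nr2f1 (nuclear receptor, chr13:78198824-78199123, minus strand): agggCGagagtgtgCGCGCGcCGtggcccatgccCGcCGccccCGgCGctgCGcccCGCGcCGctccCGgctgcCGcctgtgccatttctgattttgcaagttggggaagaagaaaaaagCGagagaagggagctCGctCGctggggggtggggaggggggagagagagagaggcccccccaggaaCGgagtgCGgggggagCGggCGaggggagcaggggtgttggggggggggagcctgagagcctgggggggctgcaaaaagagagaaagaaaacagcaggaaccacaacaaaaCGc
The Bcl11a and Nr2f1 promoters held 23 CG each, C130071C03Rik held 4 and Mroh2a held 0. The Ugt1a cluster is named beside Mroh2a because the Ugt1a1 start site lies in the same domain. The Mroh2a promoter itself is not placed inside the cluster by this. Over the 677 promoters of the table that start inside the 500 domains, the median was 18 CG (quartiles 10 and 28), against 21 (13 and 29) over 14506 promoters in the other regions and 3 (1 and 5) over 16213 promoters in no region. At least 1 CG was held by 99.4% of promoters in domains and 94.8% of all 31396 promoters. The motif TATAAA, searched on both strands, was held by 8.27% of promoters in domains, 6.31% in the other regions and 13.6% of all promoters. Promoters of the table started in 371 of the 500 domains.

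MicroRNA genes were present in the broad domains, and their mature sequences are shown because 3 separate domains carry copies of the same neural microRNA. Of 919 autosomal hairpins in the RefSeq table, 179 lay in a region and 27 in a broad domain, in 18 domains. These microRNAs were chosen after their values were seen. Positions are on GRCm38.p6, and capitals mark the seed, bases 2 to 8.
miR-9-5p (Mir9-2, chr13:83738821-83738843, plus strand): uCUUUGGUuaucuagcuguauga
miR-9-3p (Mir9-2, chr13:83738858-83738879, plus strand): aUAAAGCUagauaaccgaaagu
miR-129-5p (Mir129-2, chr2:94241419-94241439, minus strand): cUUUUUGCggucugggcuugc
miR-132-3p (Mir132, chr11:75173723-75173744, plus strand): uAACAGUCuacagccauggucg
miR-212-3p (Mir212, chr11:75173443-75173464, plus strand): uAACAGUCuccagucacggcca
miR-126a-3p (Mir126a, chr2:26591402-26591423, plus strand): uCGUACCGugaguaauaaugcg
miR-219a-5p (Mir219a-1, chr17:34025052-34025072, minus strand): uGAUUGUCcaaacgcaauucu
miR-338-3p (Mir338, chr11:120014781-120014802, minus strand): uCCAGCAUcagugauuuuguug
miR-9, a regulator of neural progenitors and neurons, is encoded by Mir9-1, Mir9-2 and Mir9-3, and all of them lay in broad domains. The domains had median cortex widths of 16.2 kb (Mir9-1), 29.6 kb (Mir9-2) and 15.6 kb (Mir9-3) and median gastrocnemius widths of 3.20, 4.70 and 2.20 kb, and each had an H3K27me3 peak in all 10 gastrocnemius libraries. The mark was also called in all 9 cortex libraries at Mir9-1 and Mir9-3 and in 5 of 9 at Mir9-2. miR-132-3p and miR-212-3p, which act in neuronal plasticity, share a seed and a domain of 11.4 kb in cortex and 12.7 kb in gastrocnemius. The domain of Mir129-2 was 8.60 kb wide in cortex and had no H3K4me3 peak in any gastrocnemius library. The domain of Mir126a, which lies in the endothelial gene Egfl7, was 12.2 kb wide in cortex and 27.8 kb in gastrocnemius. Those of Mir219a-1 and Mir338, microRNAs of oligodendrocyte maturation, were 8.80 and 8.40 kb wide in cortex and 12.7 and 5.50 kb in gastrocnemius.

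The domains had median widths from 7.40 to 71.0 kb, with a median of 8.80 kb against 2.60 kb for the other 16341 regions. The widest, at Sfi1 (chr11:3127201-3199999), was 71.0 kb wide, from 69.6 to 72.8 kb over the 9 libraries, and 73.7 kb in gastrocnemius. The second lay at the non-coding gene C130071C03Rik with Mir9-2 (chr13:83712801-83743199) and was 29.6 kb wide, from 28.4 to 30.0 kb. The third, over Mroh2a and Ugt1a1 (chr1:88210401-88270399), had a median of 28.4 kb but ranged from 4.60 to 59.2 kb. The fourth (chr9:3014601-3038399, 23.8 kb) and the seventh (chr15:85664001-85689599, 23 kb) held no curated transcription start site (TSS).

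Another 4 of the 10 widest domains lay at transcription factor genes of the developing forebrain. Bcl11a, a zinc finger factor of projection neurons, had a domain of 23.6 kb (11.6 to 26.4 kb over the libraries). Nr2f1, a nuclear receptor of cortical area patterning, had 23 kb (11.8 to 24.2 kb). Pou3f3, a POU factor of upper layer neurons, had 22.8 kb (18.6 to 24.4 kb). The domain over Dlx1 and Dlx2, homeobox genes of interneuron development, had 20.8 kb (7.60 to 24.6 kb). The Pou3f3 domain was at least 18.6 kb wide in every library, whereas those of Bcl11a, Nr2f1 and Dlx1 were 11.8 kb wide or less in at least 1 library.

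**Figure D1:**
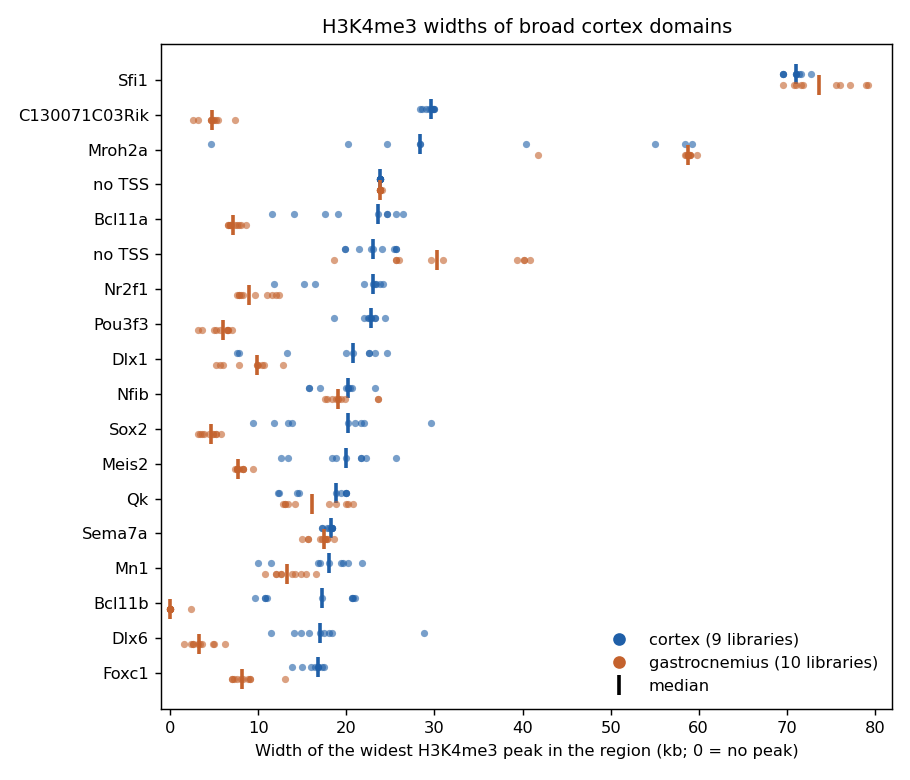
Width in kb of the widest H3K4me3 peak (horizontal axis, 0 where no peak was called) in broad cortex domains from among the widest, named by gene and in order of rank (vertical axis), 1 point per library, with vertical ticks at the medians of the 9 cortex (blue) and 10 gastrocnemius (orange) libraries. Pou3f3 lay between 18.6 and 24.4 kb in cortex and between 3.20 and 7.0 kb in gastrocnemius, while Sfi1 was at least 69.6 kb wide in every library of both tissues.

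At the threshold, the members just inside were Cacna2d3, Gnao1, Ptch1, Cpeb3 and Nup93 and the regions just outside were Kcnma1, Map3k11, Dnajc14, Ppp1r15b and Mir137. All 10 had a median width of 7.40 kb. This width was shared by 54 regions, of which 20 were taken as members by their mean width, then by position.

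Most broad domains covered promoters. A TSS of a protein-coding gene lay in 468 domains, only non-coding TSSs in 15 and no curated TSS in 17. Among the other regions, 74.2% held a protein-coding TSS and 23.5% none. A wider region has more room for a TSS, and the next 500 regions by width, with a coding TSS in 94%, were close to the 93.6% of the domains. At least 1 whole coding transcript lay inside 20.6% of domains, 15% of the next 500 regions and 4.26% of the other regions. A non-coding gene started in 24.6% of domains, 12.6% of the next 500 and 7.85% of the others. CpG density was close between the sets, with medians of 25.3 per kb in domains and 27.1 in the other regions, as was GC content (50.8% and 49.7%). The density of H3K4me3 in cortex had a median of 12.6 RPM per kb in domains, 13.5 in the next 500 regions and 12.3 in the other regions, where RPM are reads in the region scaled to 1 M reads in the autosomal peaks of the library.

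Some domains carried every mark in every library. A peak of all 3 marks in all 57 libraries was found at 53 domains (10.6%), against 7.20% of the next 500 regions by width and 2.78% of the other regions. They included Sfi1, the chromosome 9 region without a TSS (chr9:3014601-3038399) and the Mroh2a domain, and also developmental genes such as Nr2f1, Dlx1, Meis2 and Foxc1. H3K27me3 in the cortex was 4032 to 6824 RPM at Sfi1 and 2145 to 3198 RPM at the chromosome 9 region, against 0.489 to 103 RPM at Nr2f1. The widths of the chromosome 9 region were 23.8 kb in each of the 9 cortex libraries, and those of a second region at the start of that chromosome (chr9:3000001-3009199) were 9.20 kb in each. Of the 500 domains, 8 began in the first 4 Mb of a chromosome, 5 of them without a TSS. The part of this position in the values was not tested, and the values given below with exact permutation tests had the same direction and call without the regions that begin in the first 4 Mb.

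Genes of cortical neurons, oligodendrocytes and endothelium were found in the broad domains at shares above that of all genes, while ribosomal and respiratory genes lay near it or below. Of the 14780 genes with a TSS in a region, 685 (4.63%) had a TSS in a broad domain, and each list is read against this share. Of 30 cortical projection neuron factors, 20 (66.7%) lay in a domain. After Bcl11a and Pou3f3 they included Nfib, a nuclear factor I gene, at 20.2 kb (15.8 to 23.2 kb). Of the interneuron genes with a TSS in a region, 11 of 21 (52.4%) lay in a domain, with Dlx1 and Dlx2 sharing a domain and Dlx5 and Dlx6 sharing another of 17.0 kb (11.4 to 28.8 kb). Gad1 and Gad2, which make GABA, and Slc32a1, which loads it into vesicles, had 12.2, 9.0 and 11.4 kb.

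Synaptic and receptor genes followed. Of 38 synaptic vesicle and scaffold genes, 13 (34.2%) lay in a domain, among them Camk2a, the kinase of long-term potentiation (14 kb), Dlg4, which encodes the scaffold PSD-95 (13.0 kb) and Homer1 (10.6 kb). Of 33 glutamate and GABA receptor genes, 5 (15.2%) did, namely Grin2b at 16.4 kb, Gabbr1 at 12.8 kb, Grik2 at 12.2 kb, Grik3 at 10.4 kb and Gria1 at 9.0 kb. Of 36 voltage-gated channel genes, 4 (11.1%) did, among them the potassium channel genes Kcna1 (10 kb) and Kcnc1 (9.0 kb). Of 18 neuronal genes, 8 (44.4%) lay in a domain, with Elavl2 (9.60 kb), Snap25 (9.0 kb) and Syt1 (8.60 kb) next after Camk2a. Of 24 immediate early genes, 5 (20.8%) did, the highest being Homer1, Nr4a2 (8.60 kb), Nr4a3 (8.0 kb) and Fosl2 (7.60 kb).

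Glial and vascular genes were represented too. Of 21 oligodendrocyte lineage genes, 10 (47.6%) lay in a domain, led by Qk, an RNA-binding protein of myelination (18.8 kb), Sox10 (12.4 kb), Sox8 (11.2 kb) and the myelin gene Mbp (10.6 kb). Of 20 astrocyte genes, 5 (25%) did, among them Sox2, also a progenitor factor (20.2 kb), Nfia (10 kb) and Id2 (9.40 kb). Of 17 endothelial genes in a region, 8 (47.1%) did, led by Foxc1 (16.8 kb), the VEGF receptor gene Flt1 (12.8 kb), the glucose transporter gene Slc2a1 (12.2 kb) and Egfl7 (12.2 kb). Of 14 microglia genes in a region, Sall1 (12.8 kb) was the 1 in a domain.

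Developmental, chromatin and housekeeping lists follow. Of 28 developmental homeobox and related genes in a region, 8 (28.6%) lay in a domain, with Meis2 (20 kb), Zic2 (16 kb) and Zic1 (11.6 kb) first. Of 65 chromatin modifier genes, 8 (12.3%) did, with Setd1b, which encodes an H3K4 methyltransferase, at 16.6 kb, Kdm6b, an H3K27 demethylase, at 13.6 kb, Brd2 at 9.80 kb and Arid1b at 8.80 kb. Of 16 Alzheimer genes of wide expression, Mef2c (9.80 kb), Bin1 and Mapt (both 7.60 kb) did. Of 47 ribosomal protein genes, 1 (2.13%) did, Rps15, whose domain also holds Apc2, and of 38 respiratory chain and citrate cycle genes and 3 skeletal muscle genes in a region, 0 did.

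**Figure D2:**
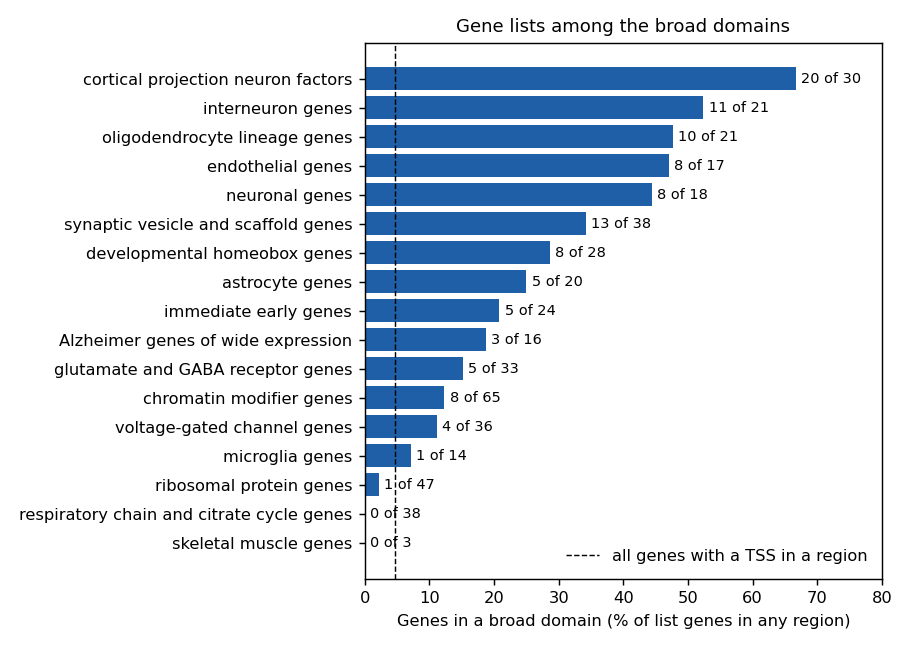
Share of the genes of each list that start in a broad domain (horizontal axis, percent of the list's genes that start in any of the 16841 regions), with the counts beside the bars. The dashed line is the 4.63% of all genes with a TSS in a region, and 20 of 30 projection neuron factors stand at the top while 1 of 47 ribosomal protein genes and 0 of 38 respiratory genes stand at the bottom.

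Width in the gastrocnemius, which the ranking did not use, was compared next. In the 10 muscle libraries the domains had a median width of 7.38 ± 0.945 kb (SD, n = 10), against 3.48 ± 0.444 kb for the other regions with a peak. The gap of 3.90 kb lay between 3.20 and 4.80 kb in the 10 libraries (two-sided exact permutation test by sign flips, p = 0.00195, the smallest that 10 libraries allow, adjusted p = 0.00391 by Benjamini-Hochberg over 8 tests). Against the next 500 regions the gap was 0.800 kb. A peak was called at 92.8% ± 0.733 of domains and 89.4% ± 1.17 of the other regions, a gap of 3.33 percentage points (exact permutation p = 0.00195, adjusted p = 0.00391), which fell to 0.780 points against the next 500 regions. A wide region is touched by a peak more easily, and with a peak required over at least 50% of the region the gap turned to -18.6 points.

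The domains thus fell into some that were as broad in muscle and others that were narrow or unmarked there. The gastrocnemius median width exceeded that of cortex at 168 domains (33.6%), and it was under 50% of that of cortex at 176 (35.2%), against 69.8% and 14% of the other regions. When gastrocnemius regions were ranked by the same rule, 146 domains (29.2%) overlapped the top 500 there, against 14% of the next 500 regions and 3.35% of the other regions, and 143 (28.6%) of that list overlapped a domain. The widest shared were Sfi1, Mroh2a, the regions without a TSS on chromosomes 9 and 15, and Nfib, at 19 kb in gastrocnemius. Widths of all 9 cortex libraries exceeded all 10 gastrocnemius libraries at 169 domains (33.8%), against 11.8% of all regions, and lay below them at 27 (5.40%), against 8.74%. Because the ranking used the cortex widths, no direction is read from these counts.

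Some projection neuron factors were broad in cortex and shorter in muscle. Others were about as wide in both, such as Nfib (20.2 kb in cortex and 19 kb in gastrocnemius) and Tcf4 (10 and 11.3 kb). Pou3f3 had a median of 6.0 kb in gastrocnemius (3.20 to 7.0 kb), Bcl11a 7.10 kb (6.60 to 8.60 kb) and Tbr1, a T-box factor of deep layer neurons, 3.50 kb (1.80 to 5.40 kb). Bcl11b, which encodes CTIP2, had a peak in 1 of the 10 muscle libraries (2.40 kb). No H3K4me3 peak was called in any gastrocnemius library at 26 domains (5.20%, against 4.40% of the next 500 regions and 6.94% of the other regions), of which the widest were Grin2b (16.4 kb in cortex), Myt1l, a neuronal zinc finger factor (14 kb), Camk2a (14 kb), 1 of the 2 domains at the phosphodiesterase gene Pde2a (11.8 kb) and Lmo3 (9.80 kb). The synaptic genes Snap25, Gria1, Dlgap1 and Syt4 were also among them, as were the oligodendrocyte genes Mobp and Ermn.

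Other domains were wider in muscle. Egfl7 was 12.2 kb in cortex (10.6 to 14.2 kb) and 27.8 kb in gastrocnemius (25 to 29.6 kb). The long non-coding RNA gene Neat1 was 12.2 kb in cortex (10.8 to 15 kb) and 32.5 kb in gastrocnemius (23.4 to 69.4 kb). Kmt2e, a chromatin regulator, was 8.40 kb (7.60 to 11.2 kb) and 25.2 kb (15.8 to 34.0 kb). The groups did not overlap at these genes, of which Neat1 and Kmt2e were chosen after their values were seen.

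**Figure D3:**
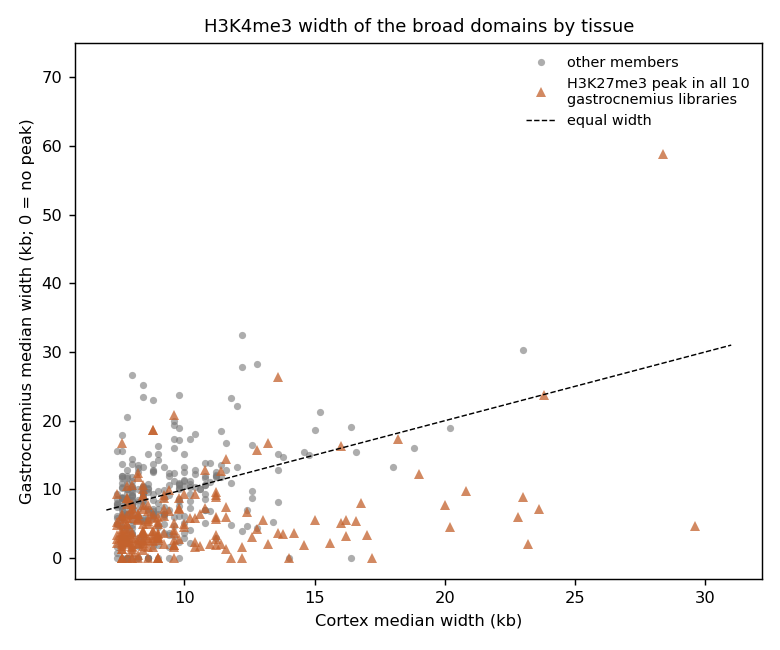
Median H3K4me3 width in gastrocnemius (vertical axis, kb, 0 where most libraries had no peak) against cortex (horizontal axis, kb) for the domains, with Sfi1 (71.0 and 73.7 kb) left off the scale and the dashed line at equal width. Triangles are the domains with an H3K27me3 peak in all 10 gastrocnemius libraries (214 of all 500 domains), and the widest domain among those drawn, C130071C03Rik, stands at 29.6 kb in cortex and 4.70 kb in gastrocnemius.

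H3K27ac was denser on the broad domains in cortex, and not in gastrocnemius. Reads are those of called H3K27ac peaks, in RPM per kb of region. In cortex the domains had a median of 5.31 ± 0.499 RPM per kb (SD, n = 9) and the other regions 4.08 ± 0.395. The log2 ratio was 0.38 ± 0.020 and lay between 0.36 and 0.41 in the 9 libraries (two-sided exact permutation test by sign flips, p = 0.00391, the smallest possible, adjusted p = 0.00446). In gastrocnemius the same regions had 3.14 ± 0.265 and 3.26 ± 0.389 RPM per kb (SD, n = 10), a log2 ratio from -0.14 to 0.03. The ratio differed between the tissues by 0.43 on the log2 scale (two-sided exact permutation test over 92378 relabellings, p = 1.08e-05, the smallest possible, adjusted p = 4.33e-05), and the 2 sets of libraries did not overlap. Against the next 500 regions by width the ratio in cortex fell to 0.07 (exact permutation p = 0.00391), and the difference between tissues to 0.20. The domains were ranked by H3K4me3 width in cortex alone, and the part of this choice in the difference was not tested.

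**Figure D4:**
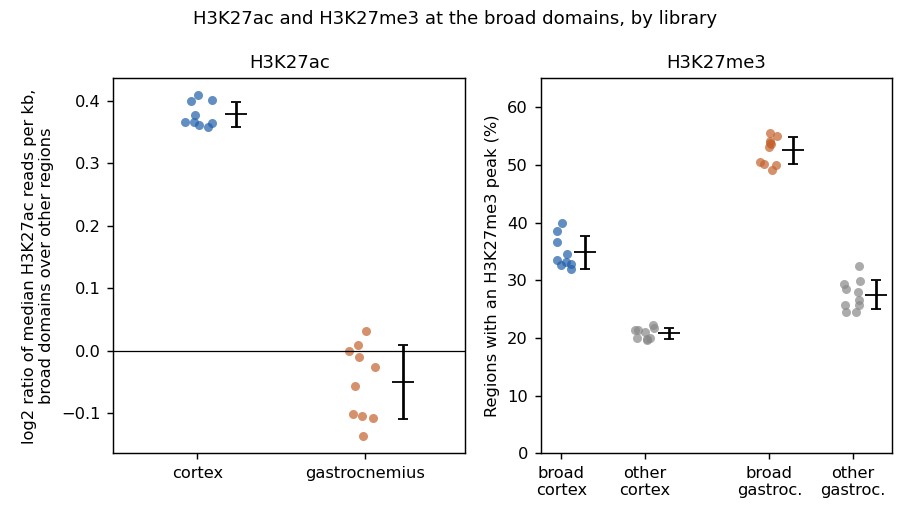
Left, log2 ratio of the median H3K27ac reads per kb of the broad domains over that of the other regions (vertical axis) in each cortex and gastrocnemius library, and right, percent of broad domains or other regions with an H3K27me3 peak in each library. Points are libraries and bars the mean ± SD, with all 9 cortex ratios between 0.36 and 0.41, all 10 gastrocnemius ratios at or below 0.03, and H3K27me3 on 32.0 to 40% of domains in cortex and 49.2 to 55.6% in gastrocnemius.

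H3K27ac at single domains was tested between the tissues with edgeR over the 12875 regions where all 19 H3K27ac libraries had a peak, which took in 378 of the 500 domains. The others could not be tested, and 61 of the 500 had no H3K27ac peak in any gastrocnemius library (12.2%, against 11.4% of the next 500 regions and 9.63% of the other regions). Of the domains tested, 176 were higher in cortex (46.6%), 100 were higher in gastrocnemius (26.5%) and the rest did not pass an FDR of 0.05, where 24.5% and 25.9% of all tested regions passed, 50.4% in either direction against 73.0% of the domains. The split depended on the scaling. The trimmed mean of M values (TMM) scaled libraries to the reads in the tested regions, with a median log2 difference of -0.01 over all regions and 0.12 over the domains. Scaled to all reads in autosomal peaks, the medians were 0.26 and 0.40, and the counts of domains were 223 and 31, against 5810 and 1152 of all regions. Calls higher in cortex made up 63.8% of the domains called with TMM and 87.8% with library sizes, and 48.6% and 83.5% of all regions called. RPM values below are scaled to all reads in peaks and the log2 differences by TMM. RPM of all cortex libraries exceeded all gastrocnemius libraries at 142 tested domains (37.6%, against 13.8% of all regions) and lay below them at 9 (2.38%, against 1.90%).

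Of the domains without overlap between the tissues, the 5 with the largest excess in cortex were those of Gm3764, Igsf9b, Nr2f1, Olfm1 and Basp1. The Mir9-1 domain, named by the non-coding gene Gm3764 (chr3:88199601-88223199), held 125, 156 and 213 RPM (lowest, median and highest of 9) in cortex and 4.11, 8.37 and 11.6 RPM in gastrocnemius. Its log2 difference was 3.91 (SE 0.147, edgeR adjusted p = 4.97e-17). Igsf9b, an adhesion molecule of inhibitory synapses, held 41.9, 69.1 and 81.9 RPM against 3.37, 5.12 and 7.46 RPM (log2 difference 3.41, SE 0.132). Nr2f1 held 101, 134 and 186 RPM against 5.16, 10.7 and 18.9 RPM (3.33, SE 0.180, edgeR adjusted p = 4.13e-14). The first of the 2 domains at Olfm1, a secreted neuronal glycoprotein, differed by 3.14 (SE 0.129), and Basp1, a membrane protein of growth cones, by 3.0 (SE 0.137). The tissues did not overlap at any of these 5 genes.

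In the other direction the 5 were Tbx2, Tbx3, Erg, Flt1 and Ptprb. Tbx2, a T-box factor gene, held 9.22, 16.7 and 24.6 RPM in cortex and 41.9, 50.2 and 57.4 RPM in gastrocnemius, a log2 difference of -1.82 (SE 0.140, edgeR adjusted p = 3.29e-11). Tbx3 differed by -1.73 (SE 0.098), Erg, an ETS factor of endothelium, by -1.56 (SE 0.104), Flt1 by -1.49 (SE 0.123) and Ptprb, the vascular phosphatase VE-PTP, by -1.49 (SE 0.131). At Flt1 the values were 12.4, 21.7 and 30.9 RPM in cortex and 40.2, 50.8 and 60.0 RPM in gastrocnemius. The other 4 domains without overlap in this direction were Gata2, Acvrl1, Dll4 and Fli1, genes of vascular or blood development, with log2 differences from -1.43 to -0.87. They were named after their values were seen.

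**Figure D5:**
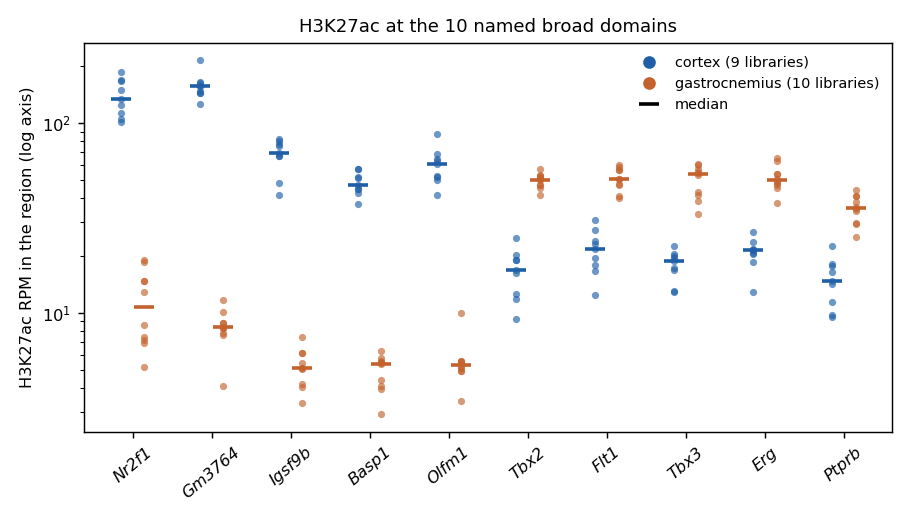
H3K27ac RPM in the region (vertical axis, log scale) in each cortex (blue, 9) and gastrocnemius (orange, 10) library at the 5 domains with the largest excess in each tissue, with horizontal ticks at the medians. At Gm3764 cortex libraries held 125 to 213 RPM and gastrocnemius libraries 4.11 to 11.6 RPM, and at Tbx2 the order was turned, with 9.22 to 24.6 RPM in cortex and 41.9 to 57.4 RPM in gastrocnemius.

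The gene lists differed in how much of H3K27ac could be tested. Of the 20 domains of projection neuron factors, 10 were tested, 4 higher in cortex and 3 in gastrocnemius, and 5 had no H3K27ac peak in any gastrocnemius library. Pou3f3 held 167, 197 and 248 RPM in cortex and Bcl11b 63.2, 85.9 and 143 RPM, and each was listed at 0 in all 10 muscle libraries. All 3 tested neuronal domains were higher in cortex, among them Camk2a (log2 difference 2.45, SE 0.257), which had H3K27ac but no H3K4me3 peak in the muscle libraries. Of 6 tested endothelial domains, 1 was higher in cortex and 4 in gastrocnemius. Of 6 tested synaptic domains 3 and 2 were, of 4 oligodendrocyte lineage domains 2 and 1, of 5 interneuron domains 1 and 3, and of 5 immediate early domains 2 and 3. Of 8 chromatin modifier domains, 1 and 4 were, of 5 homeobox domains 3 and 2, of 4 astrocyte domains 1 and 1, and of 3 channel domains 2 and 1. Gabbr1 (log2 difference 1.36, SE 0.093) was the 1 receptor domain tested and was higher in cortex, as was the domain of Rps15. Of 3 Alzheimer gene domains, 1 and 1 were, and the Sall1 domain had no H3K27ac peak in muscle. Of all tested regions, 24.5% were called higher in cortex and 25.9% in gastrocnemius, and of the tested domains 46.6% and 26.5%. Because these counts depend on scaling, small list counts in either direction are given as a description.

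H3K27me3 lay on more of the domains in muscle than in cortex. In cortex 34.9% ± 2.86 of the domains had an H3K27me3 peak (SD, n = 9, 32.0 to 40%), against 20.8% ± 0.957 of the other regions. In gastrocnemius 52.5% ± 2.31 did (SD, n = 10, 49.2 to 55.6%), against 27.5% ± 2.59. The tissues differed at the domains by -17.7 percentage points, cortex minus gastrocnemius (two-sided exact permutation p = 1.08e-05, adjusted p = 4.33e-05), and by -17.9 points with a peak required over at least 50% of the domain. All regions were kept by H3K4me3 peaks in cortex alone, and the part of this choice in the difference was not tested. The gap of domains over other regions in cortex was 14.1 points (12 to 17.7 in the libraries, exact permutation p = 0.00391, adjusted p = 0.00446), and it fell to 4.50 points with a peak over at least 50% of the region and to 6.11 points against the next 500 regions.

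By domain, 116 had an H3K27me3 peak in all 9 cortex libraries and 264 in none, and 214 had one in all 10 gastrocnemius libraries and 183 in none. A peak in all 9 cortex libraries was thus found at 23.2% of domains, 19.8% of the next 500 regions and 13.6% of the other regions, and a peak in all 10 gastrocnemius libraries at 42.8%, 33.4% and 17.0%. No peak was called in any cortex library at 52.8%, 62.8% and 70.1%, and in any gastrocnemius library at 36.6%, 48.8% and 60.3%. Peaks in all 19 libraries were found at 102 domains (20.4%, against 15.2% and 9.37%), and 167 had none in any of the 19 (33.4%, against 44.4% and 55.6%). A peak in all 10 muscle libraries and in no cortex library was found at 33 domains (6.60%, against 7.60% of the next 500 regions and 2.55% of the other regions). The reverse was found at 2 domains (0.400%, against 0.936%). The 33 included Sema7a, Dlg4, Kif21b, Grik2, Pcdh10 and Kcna6, named by rank after their values were seen. Grik2 held 14.4, 39.5 and 45.5 RPM of H3K27me3 in the muscle libraries and Dlg4 22.1, 32.8 and 51.8 RPM.

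The widest domains with an H3K27me3 peak in all 9 cortex libraries were Sfi1, Mroh2a, the chromosome 9 region, Bcl11a and Nr2f1. Bcl11a held 14.8, 39.1 and 54.8 RPM of H3K27me3 in cortex and 74.4, 110 and 144 RPM in gastrocnemius. Pou3f3 had an H3K27me3 peak in 6 of 9 cortex and all 10 muscle libraries, with 0, 30.8 and 88.2 RPM in cortex and 91.4, 160 and 214 RPM in gastrocnemius. At Dlx1 the mark was as strong in cortex, with 146, 197 and 212 RPM against 89.7, 166 and 222 RPM, and the tissues overlapped. At Nr2f2, which in muscle was 26.4 kb wide in H3K4me3, cortex held 68.0, 152 and 193 RPM and muscle 22.9, 37.8 and 59.3 RPM.

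By list, the counts are read against the 23.2% of all domains with H3K27me3 in all 9 cortex libraries and the 42.8% with it in all 10 gastrocnemius libraries. Genes that share a domain are counted singly, so the 11 interneuron genes stand for 9 domains. Of these 11 genes, 9 had H3K27me3 in all 9 cortex libraries, as did 10 of 20 projection neuron factors, 7 of 8 homeobox genes, 5 of 8 endothelial genes and 4 of 10 oligodendrocyte lineage genes. In all 10 gastrocnemius libraries the mark was found at 9 of the interneuron genes, 12 of the projection neuron factors, 6 of the homeobox, 4 of the endothelial and 7 of the oligodendrocyte lineage genes. Of the 13 synaptic genes 0 had it in all 9 cortex libraries and 6 in all 10 muscle libraries, close to the share of all domains. Of the 8 chromatin modifier genes 0 had it in all libraries of either tissue, and all 8 had H3K4me3 and H3K27ac in all 10 muscle libraries.

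The side of the TSS on which a domain lay was compared at regions with coding TSSs of 1 gene. In cortex 71.8% ± 0.476 of the widest peak lay downstream of the TSS in domains (SD, n = 9) and 67.3% ± 0.355 in the other regions, a gap of 4.49 points (3.95 to 5.0 in the libraries). Because the same peaks chose the domains, the cortex values are a description. The gap was -1.37 points against the next 500 regions by width. In gastrocnemius the values were 62.9% ± 0.812 and 62.3% ± 0.670 (SD, n = 10), with a gap of 0.539 points that did not pass (exact permutation p = 0.0918). Without gastrocnemius library 7 it was 0.764 points (exact permutation p = 0.00391).

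Domains varied between cortex libraries by a median coefficient of variation of 14.4% in width, against 12.1% in the next 500 regions and 16.7% in all other regions. The least variable were the 2 chromosome 9 regions, Sfi1 (1.53%), C130071C03Rik (2.04%) and Caskin2 (2.06%). The most variable were Mroh2a (53.7%), the neighbouring Hjurp domain (48.5%), Pde10a (48.4%), Ndufa4l2 (45.7%) and Adora2a (45.1%). Pde10a, a phosphodiesterase, and Adora2a, an adenosine receptor, are known for high expression in striatal neurons. Cortex library 4 was the narrowest alone at 131 of the 500 domains and library 7 at 119, and library 9 was the widest alone at 126. Median domain widths by library lay between 8.0 kb (libraries 4 and 7, with 10.01 and 10.6 M reads) and 9.80 kb (library 9, with 16.9 M reads). The deepest, library 8 with 18.6 M reads, had a median of 9.20 kb and the shallowest, library 2 with 9.32 M reads, 8.80 kb, and the part of depth in the widths was not tested.

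The Pde10a domain was 17.8, 16.8, 5.60, 3.40, 5.80, 16.6, 17.2, 16.8 and 10.6 kb wide in cortex libraries 1 to 9. The H3K27ac libraries of the same animals held 110, 90.0, 41.0, 34.0, 55.3, 89.3, 116, 55.2 and 51.8 RPM there. Libraries 3 and 4 were thus lowest in H3K27ac and among the 3 narrowest, and library 8 was wide in H3K4me3 with a middle level of H3K27ac. The Mroh2a domain was narrowest in library 5 (4.60 kb), where H3K27ac was also lowest, at 34.9 RPM in a range up to 128 RPM. H3K27ac at interneuron genes had a like order, and libraries 1, 2, 6 and 7 held the 4 highest values at each of Pde10a, Adora2a, Dlx6, Gad1 and Slc32a1. The lowest, median and highest values over the 9 libraries were 15.1, 57.9 and 165 RPM at Dlx6 and 18.2, 34.3 and 92.1 RPM at Gad1. They were 8.45, 21.0 and 70.3 RPM at Slc32a1 and 15.6, 35.7 and 55.4 RPM at Adora2a. H3K4me3 width varied less at Gad1 (9.0 to 12.8 kb) and Slc32a1 (10.6 to 11.8 kb). These genes were chosen after their values were seen, and the part of cell composition in them was not tested.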

How the data were processed

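Chromatin of cortex and gastrocnemius was immunoprecipitated for 3 marks. Reads were mapped by the authors with bwa (genome build mm10) and filtered with SAMtools, and epic2 was run on each library, without an input library. The deposited read count per peak comes from epic2, as does the deposited score, which was used here only in alternatives that leave out peaks. Neighbouring peaks of a file were at least 601 bp apart (H3K27me3, 801 bp), so a width depends on this joining. It may also depend on depth, which was not tested, and reads outside peaks were not analysed here.

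Width is end minus start. Peak reads were shared over regions by overlap and rounded for tests. TSSs are curated RefSeq start sites of GRCm38.p6, and domains are named by the coding gene with a TSS nearest their middle, or a non-coding gene where there is none. The edgeR (4.0.16) quasi-likelihood test used TMM factors and Benjamini-Hochberg adjustment over all tested regions. Single values were tested by exact permutation over libraries, adjusted over 8 tests, of which the cortex test of the share downstream of the TSS is not read, since the same peaks chose the domains. Python 3.11.15, NumPy 2.4.6 and R 4.3.3 were used. On simulated H3K27ac counts over 12875 regions, edgeR recovered 91 of 100 regions changed 1.5-fold and 100 of 100 changed 2-fold, with 6 unchanged regions called.

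Named were the 10 widest domains, the 5 regions on each side of the threshold, up to 4 per gene list, the 5 with the largest H3K27ac change in each direction, and 5 each by muscle H3K4me3, cortex H3K27me3, missing TSS and variability. Other genes were named after their values were seen. Some genes that these rules name are not reported here. The members, the gene lists and these rules were chosen with earlier results of these data known. Alternatives were other width summaries, peak filters, scalings (DESeq2 1.42.0, limma 3.58.1), overlaps, comparison sets, blocks and left-out libraries.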

Additional observations from a re-analysis of the deposited data

Results flagged for a closer look

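The difference between the tissues in the H3K27ac ratio of domains over other regions, 0.43 on the log2 scale, is listed because the effect of the same contrast differed between tissues in a direct test. The other values listed were each marked as an outlier of their group by Dixon's test at the 95% level. It sets the gap to the next value against the range, so a small gap is marked where the rest are nearly equal. It was applied to 60 groups of 9 or 10 libraries, of which chance alone would mark about 1 in 20, and 10 had such a value. In sequencing depth these were the 3.90 M reads of cortex H3K27ac library 9 (lowest), the 27 M of gastrocnemius H3K27ac library 6 (highest) and the 18.2 M of gastrocnemius H3K27me3 library 5 (highest). In H3K4me3 they were the share downstream of the TSS in cortex library 2 (70.8%, lowest), the Mroh2a width in gastrocnemius library 6 (41.8 kb, lowest), the width of the chromosome 9 region in the same library (24.0 kb, highest) and the Pou3f3 width in cortex library 7 (18.6 kb, lowest). The chromosome 9 value lay close to the gastrocnemius median of 23.8 kb. In H3K27ac they were the Gm3764 values in cortex library 9 (213 RPM, highest) and gastrocnemius library 8 (4.11 RPM, lowest), and the Olfm1 value in gastrocnemius library 9 (10.01 RPM, highest). Their causes were not tested.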

How the results depend on the processing

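Of the 500 domains, 465 were kept with the mean in place of the median, 409 with summed widths, 464 in the 7 cortex libraries without a run number in the deposited name, 497 without the 25% of peaks of lowest score, 500 with equally many peaks per library or a peak in at least 7 of 9 libraries, 475 to 478 without 1 library, and 250 by construction in a top 250. Domains higher in H3K27ac in gastrocnemius numbered 31 with library sizes only or with limma (1152 and 1104 of all regions, with 5810 and 6001 higher in cortex), and 55 in the top 250, whose count higher in cortex was 91. With uncalled regions at 0 reads, 282 of 500 were higher in cortex (5155 of all regions). Without 1 library the counts were 171 to 184 higher in cortex and 87 to 98 in gastrocnemius. The 10 domains named for H3K27ac kept direction and call in all 296 fits of the alternatives.

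The H3K4me3 share gap in gastrocnemius turned to -18.6 points with a peak over at least 50% of the region, and the downstream gap in cortex to -1.37 points against the next 500 regions. The downstream gap in gastrocnemius was -0.21 points in the top 250, -0.45 against the next 500 regions and 2.63 where a region had 1 TSS position (exact permutation p = 0.00195), and 0.368 to 0.764 without 1 library. The cause was not tested. Without 1 library the other values were 0.37 to 0.38 (H3K27ac ratio in cortex), 0.42 to 0.44 (its difference between tissues), -18.3 to -17.3 and 13.6 to 14.3 points (H3K27me3), 3.80 to 3.98 kb and 3.24 to 3.46 points (H3K4me3 in gastrocnemius), and 4.42 to 4.56 points (downstream, cortex). In the libraries without a run number the H3K27ac difference between tissues was 0.44 and that of H3K27me3 -17.5 points. Leaving out regions in the first 4 Mb of a chromosome, chosen after seeing the data and run for the exact permutation tests alone, changed no direction or call of those.

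By the animal codes in the deposited names, cortex libraries 1 to 4 came from the same animals as gastrocnemius libraries 1 to 4, and cortex 5 to 9 as gastrocnemius 6 to 10, so equal numbers mark the same animal only for 1 to 4. H3K27ac deviations correlated from -0.057 to 0.052 by number and from -0.040 to 0.053 by animal. With the animal as a block, chosen after seeing the data for the exact tests, the H3K27ac difference was 0.43 and that of H3K27me3 -17.4 points (exact permutation p = 0.00391, the smallest 9 pairs allow), and 173 and 96 domains were called, with no call of these values changed. The replicate block by number, which joins different animals from number 5 on, gave 0.43, -17.3 points and 174 and 95 domains. Reads outside called peaks were not analysed, so a region without a peak may still hold reads.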

Other observations

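Broad H3K4me3 domains overlapped broad H3K27ac only in part. Ranking cortex H3K27ac regions by the same rule, 138 of the 500 domains (27.6%) overlapped the 500 widest, against 17.8% of the next 500 H3K4me3 regions and 5.78% of the other regions. Over the 492 domains with an H3K27ac peak in all 9 cortex libraries, the widest such peak had a median of 16 kb, against 11.4 kb in the next 500 regions and 5.20 kb in the other regions. In gastrocnemius it was 18.7 kb over the 381 domains called in all 10 libraries, against 15.5 kb in the next 500 and 7.80 kb in the other regions. Another 2 domains had no H3K27ac peak in any cortex library, and both lay in the first 4 Mb of a chromosome without a TSS (chr16:3231601-3245199 and chr4:3061801-3071799), with H3K27me3 in all 19 libraries.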
